A study of Mus musculus with 6 samples.

Results

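The mesothelial cells of the uterus of 12-month-old mice exposed to diethylstilbestrol (DES) as newborns were described against the mesothelial cells of control uteri. DES is a synthetic estrogen. The members were the cells that the authors' deposited annotation calls mesothelial in the DES library, that passed the authors' quality filter and that had a column of counts. There were 3837 such cells, out of 9701 DES cells with a cell type, 16312 DES cells with counts and 48699 cells with counts in the whole series. The comparison group was the 6866 mesothelial cells of the control (CO) library, out of 12253 CO cells with a type and 32387 CO cells with counts.

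All animals were female CD-1 mice injected subcutaneously on neonatal days 1 to 5, either with DES at 1 mg/kg/day or with corn oil alone, and their uteri were taken at an age of 12 months. For the single-cell measurement, 4 DES uteri were pooled into 1 library and 2 CO uteri into 1 library, so a DES to CO difference in these cells has no replicate and no test, and it cannot be told apart from a difference between the 2 libraries. According to the study's methods the CO mice were in estrus and the DES mice in persistent estrus, the uterine body and oviducts were trimmed away, and the opened horns were digested with trypsin. The other 4 samples were frozen sections for spatial RNA measurement, 2 from CO uteri (CO A and CO B) and 2 from DES uteri (DES A and DES B), each from 1 mouse.

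The mesothelium is a single layer of flattened cells that covers the outer, peritoneal face of the uterine wall. It arises from mesoderm and carries epithelial keratins together with mesenchymal proteins such as vimentin, and it is known for secreting lubricating fluid, complement proteins and extracellular matrix and for presenting a smooth surface to the body cavity. In the uterus it lies outside the muscle layers, away from the lumen and its glands.

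The members held 64595031 unique molecular identifiers (UMIs), each a counted RNA molecule, and the CO mesothelial cells held 83100966. The median cell had 12329 UMIs and 3662 genes in DES and 10436 UMIs and 3326 genes in CO. At an equal depth of 3000 UMIs per cell the median was 1445 genes in DES and 1465 in CO. The median share of mitochondrial UMIs was 6.67% in DES and 6.28% in CO. Levels are given as CPM, the UMIs of a gene per 1000000 UMIs over all cells of a group summed, so 1 UMI was worth 0.0155 CPM in DES and 0.0120 CPM in CO. Intervals are exact 95% intervals and cover counting error only. Mesothelial cells made up 39.6% (38.6 to 40.5) of the typed DES cells and 56.0% (55.2 to 56.9) of the typed CO cells, but the DES library held 1 stromal cell where the CO library held 1326, so these shares depended on which other cells were captured. A total of 180 cell barcodes occurred in both libraries, 8 of them mesothelial in both.

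The label held up against its markers. The 6 genes given as markers of these cells were Upk3b and Lrrn4, surface proteins of mesothelium, Msln (mesothelin), a surface protein of the normal layer, Gpm6a, a membrane glycoprotein, Car3, a carbonic anhydrase, and Clec3b (tetranectin), a lectin that binds plasminogen. Their summed level was 3845 CPM in DES and 2931 CPM in CO mesothelial cells, against 30.8 CPM in the 5255 DES epithelial cells and 52.3 CPM in the 2583 CO epithelial cells. With every cell thinned to 3000 UMIs, which left out 55 members, 71.5% (70.03 to 72.9) of 3782 DES mesothelial cells had a UMI of at least 4 of the 6 markers and 54.8% of the CO mesothelial cells did, while 0 of 5201 DES epithelial cells did, which by a floor of 3 cells allows a share of up to 0.0577%. Of the 67 CO myeloid cells 4 did (5.97%). Without thinning the DES mesothelial share was 94.1%, that of DES epithelial cells 1.26%, that of CO epithelial cells 2.86% and that of CO myeloid cells 16.4%. Because the authors' clusters were named from marker genes, these levels check the label and are not findings.

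Within the marker set, 4 genes were within 2-fold of CO and 2 were not. Upk3b was measured at 900.0 CPM in DES and 1005 CPM in CO, a DES to CO ratio of 0.895 (0.886 to 0.905), and Lrrn4 at 353 CPM in DES and 439 CPM in CO, a ratio of 0.806 (0.792 to 0.819). Gpm6a was at 705 CPM in DES and 622 CPM in CO and Msln at 956 CPM in DES and 659.7 CPM in CO, ratios of 1.13 and 1.45. These 4 genes therefore marked the cells of both libraries at like levels. Car3 (chr3:14863512-14872523) stood at 462 CPM in DES and 105 CPM in CO, a ratio of 4.41 (4.30 to 4.52), and Clec3b (chr9:123150946-123157432) at 468 CPM in DES and 100.5 CPM in CO, a ratio of 4.66 (4.55 to 4.77). Both were several times higher in the DES cells, and DES epithelial cells held them at 2.60 and 3.35 CPM. At 3000 UMIs, 50.1% (48.5 to 51.7) of DES and 22.3% (21.3 to 23.3) of CO mesothelial cells had a Clec3b UMI, against 1.23% of DES epithelial cells, and 37.5% and 13.1% had a Car3 UMI, against 0.865% of DES epithelial cells. Before thinning the Clec3b shares were 77.1% and 48.7% and the Car3 shares 56.9% and 24.6%, at median depths of 12329 and 10436 UMIs.

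**Figure D1:**
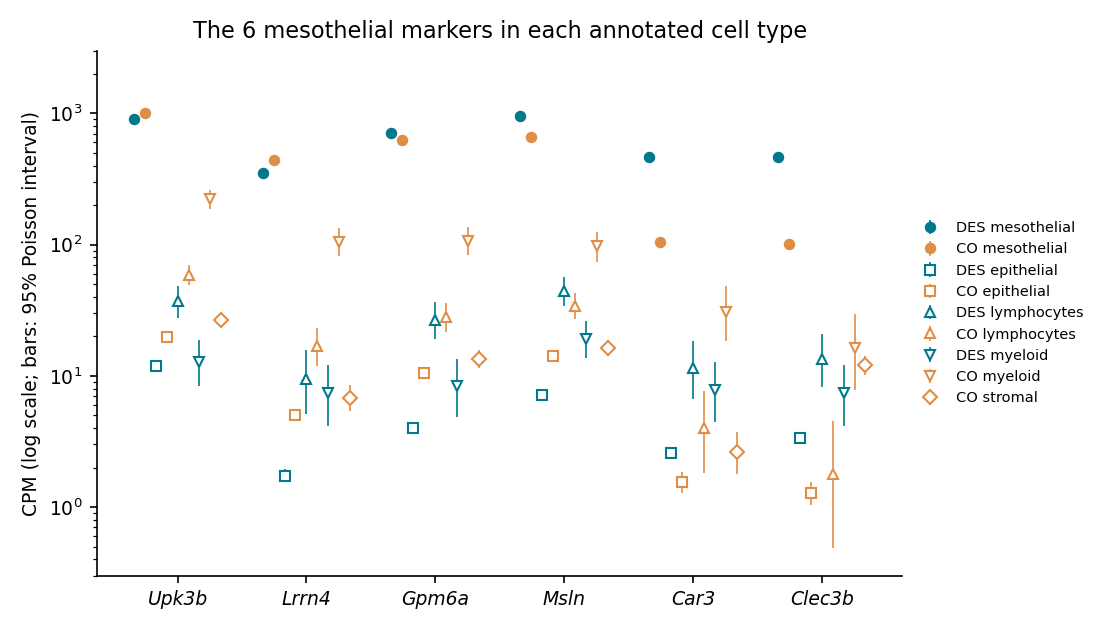
Level of each of the 6 marker genes (CPM, log scale) in the summed cells of each annotated type, with DES in teal and CO in orange; bars are exact 95% Poisson intervals. The circles of the mesothelial cells lie above the other types for all 6 genes, and the DES and CO circles are furthest apart for Car3 and Clec3b.

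Of 24077 genes, 8814 reached 10 CPM in DES or CO mesothelial cells, and these are the genes called tested. A gene was called higher or lower past 2-fold, a rule of size and not a statistical test. Of these, 167 (1.89%) were 2-fold or more higher in the DES cells and 205 (2.33%) were 2-fold or more lower, 372 (4.22%) in all. Each count of list members below is to be set beside these shares. The median ratio over the 8814 genes was 0.980, and the SD of the log2 ratio was 0.49. Past 4-fold there were 22 higher and 60 lower genes. The ratio interval of 0 called genes included 1, but the calls were made at 2-fold, so counting error can decide a call close to that cut. The interval does not cover the difference between animals or libraries. Epithelial cells held 4171 of the tested genes (47.3%) at a higher level than the mesothelial cells of the same library in at least 1 library, and the same was true of 32 of the 167 higher genes (19.2%) and 132 of the 205 lower genes (64.4%). These counts use the mesothelial values themselves, so they describe the genes and are not independent of the calls. The part of free RNA from other cells in these counts was not tested.

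**Figure D2:**
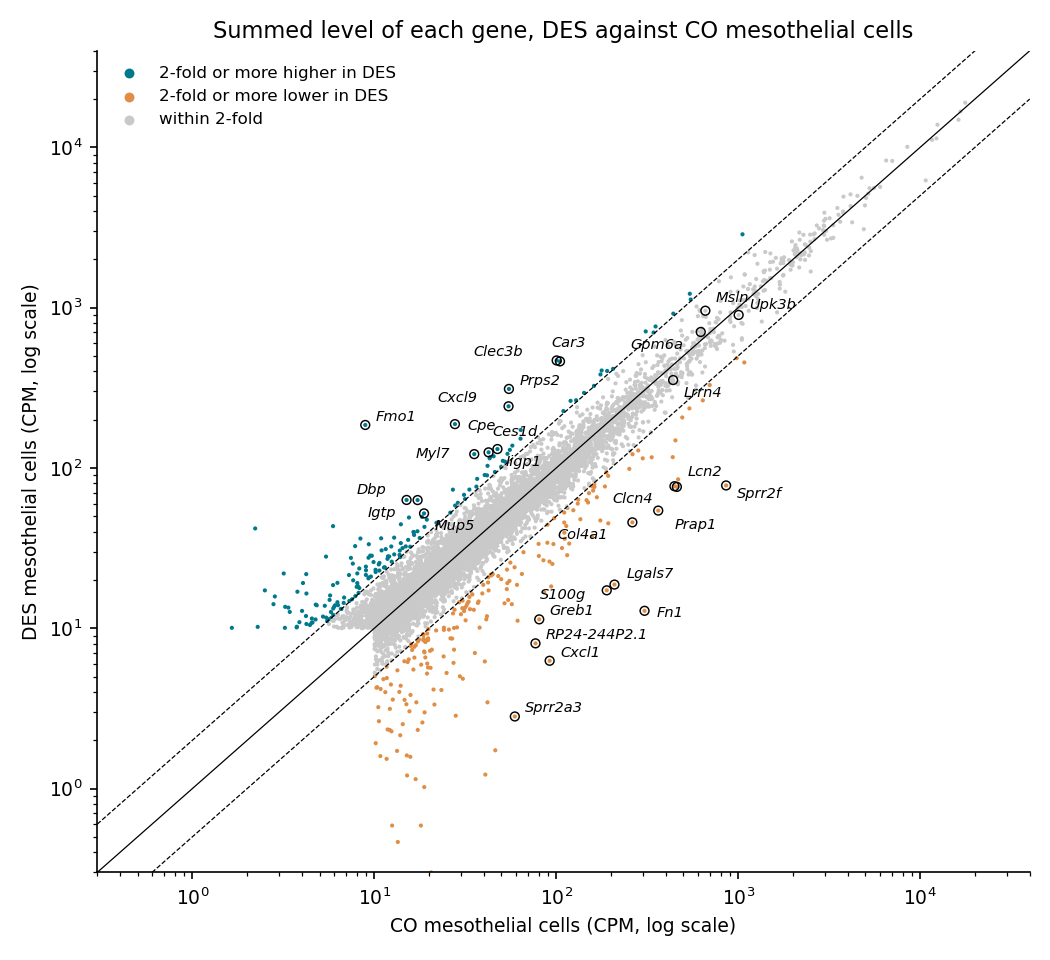
Summed level of every gene tested in DES (vertical) against CO (horizontal) mesothelial cells, both in CPM on log scales, with dashed lines at 2-fold. The 167 higher and 205 lower genes are colored, and the circled genes are the 6 markers and the 12 highest and 12 lowest ratios among genes at 50 CPM or more.

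Among genes at 50 CPM or more in either group, the highest ratio was that of Fmo1 (chr1:162829561-162866610), a flavin-containing monooxygenase that oxidizes drugs and other foreign compounds. Fmo1 was at 185 CPM in DES and 8.92 CPM in CO, a ratio of 20.8 (19.3 to 22.4), and at 3000 UMIs 30.6% (29.2 to 32.1) of DES and 1.94% (1.62 to 2.29) of CO mesothelial cells had a UMI, against 1.46% of DES epithelial cells. The unthinned shares were 58.2%, 6.34% and 10.1%. Fmo1 was thus found in many DES mesothelial cells and in few CO mesothelial or epithelial cells. Of the CO stromal cells 15.2% had a UMI. The ratio of Fmo1 stayed between 20.5 and 22.4 over 9 other ways of counting.

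Cpe (chr8:64592542-64693054), carboxypeptidase E, which trims peptide hormone precursors, followed at 188 CPM in DES and 27.7 CPM in CO, a ratio of 6.76 (6.47 to 7.08). Prps2 (chrX:167346322-167382749), an enzyme that makes the sugar phosphate needed for nucleotide synthesis, was at 311 CPM in DES and 54.9 CPM in CO, a ratio of 5.66 (5.48 to 5.85). At 3000 UMIs the share of cells with a UMI was 39.6% in DES and 7.81% in CO for Cpe and 54.2% and 14.3% for Prps2. For Cpe the share was 4.54% of DES epithelial cells, 1.41% of DES lymphocytes and 5.53% of CO stromal cells. For Prps2 it was 6.86%, 8.92% and 2.07%, so in these 3 types both genes were found in fewer cells than in the DES mesothelium. Unthinned, 80.6% and 24.5% of the mesothelial cells had a Cpe UMI and 86.3% and 38.7% a Prps2 UMI.

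Cxcl9 (chr5:92321347-92328079), a chemokine induced by interferon gamma that attracts T cells, was at 242 CPM in DES and 54.7 CPM in CO, a ratio of 4.43 (4.29 to 4.58). Dbp, a transcription factor of the circadian clock, was at 63.1 CPM in DES and 15.0 CPM in CO, and Myl7, a myosin light chain best known from the heart atria, at 122 CPM in DES and 35.4 CPM in CO, ratios of 4.198 and 3.44. The hour at which the animals were killed is not given in the sources used here. Ces1d, a carboxylesterase, was at 125 CPM in DES and 42.5 CPM in CO and Mup5, a major urinary protein that carries small hydrophobic molecules, at 52.0 CPM in DES and 18.8 CPM in CO, ratios of 2.95 and 2.77. Ces1d and Mup5 belong to families of related copies, and whether reads were split among them was not tested. Igtp and Iigp1, GTPases induced by interferon, were at 63.0 against 17.3 CPM and 131 against 47.5 CPM in DES and CO, ratios of 3.65 and 2.76. Of the DES UMIs, 69.4% of those of Igtp and 63.0% of those of Iigp1 lay in 184 DES cells, a sub-cluster described later. The ratios were 1.12 and 1.02 with 2 small DES sub-clusters left out, but all CO cells were kept, so these values are lower by construction.

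Of the 12 lowest ratios, 6 belonged to genes found in a larger share of CO mesothelial cells than of CO epithelial cells or CO lymphocytes at 3000 UMIs. Fn1 (chr1:71585520-71653200), fibronectin, a matrix protein that binds cells to collagen, was at 12.8 CPM in DES and 306 CPM in CO, a DES to CO ratio of 0.0421 (0.0392 to 0.0451), or 23.8 times higher in CO. It was found in 3.36% (2.81 to 3.98) of DES and 38.4% (37.3 to 39.6) of CO mesothelial cells at 3000 UMIs, and in 3.81% of DES epithelial cells. Unthinned, the mesothelial shares were 11.8% and 60.4%. The DES share was below that of the epithelial cells of the same library and is not read as expression, whereas the CO share was well above the 3.51% of CO epithelial cells. The ratio thus sets CO against a DES level not read as expression, and it is not an exact fold. CO lymphocytes had a Fn1 UMI in 29.0% of cells and CO stromal cells in 77.7%. The ratio of Fn1 stayed between 0.0387 and 0.0490 over 9 other ways of counting.

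Col4a1 (chr8:11198423-11312826), a chain of the basement membrane collagen, was at 45.8 CPM in DES and 262 CPM in CO, a ratio of 0.175 (0.168 to 0.182), and at 3000 UMIs it was found in 12.9% of DES and 43.1% of CO mesothelial cells, against 0.115% of DES epithelial cells. Lgals7, galectin-7, a sugar-binding protein of surface epithelia, was at 18.7 CPM in DES and 209 CPM in CO, a ratio of 0.0897 (0.0845 to 0.0951), with 0.505 and 3.67 CPM in the epithelial cells of DES and CO. Clcn4, which exchanges chloride for protons in endosomes, was at 76.9 CPM in DES and 446 CPM in CO, and the unnamed gene RP24-244P2.1 at 8.05 CPM in DES and 76.9 CPM in CO, ratios of 0.172 and 0.105. Greb1 (chr12:16670615-16800886), an established target of the estrogen receptor, was at 11.4 CPM in DES and 80.6 CPM in CO, a ratio of 0.141 (0.130 to 0.152), and was found at 3000 UMIs in 2.96% and 20.04% of the mesothelial cells. The epithelial cells held Greb1 at 18.02 CPM in DES and 60.1 CPM in CO, so it was lower in DES in that type as well.

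The other 6 of the 12 lowest ratios were those of genes found in a smaller share of CO mesothelial cells than of CO lymphocytes, which should lack most of them. Sprr2f, a small proline-rich protein of the uterine epithelium, was at 77.8 CPM in DES and 858 CPM in CO mesothelial cells and at 2859.5 and 14407 CPM in the epithelial cells of DES and CO. Lcn2, which binds bacterial iron carriers, was at 76.2 CPM in DES and 460.1 CPM in CO mesothelial cells and at 2542 and 7291 CPM in epithelial cells. Prap1, a proline-rich secreted protein, was at 54.2 CPM in DES and 363 CPM in CO mesothelial cells and at 2343 and 7074 CPM in epithelial cells. At 3000 UMIs Sprr2f was found in 25.2% of DES and 91.5% of CO mesothelial cells, beside 39.0% of DES and 98.4% of CO lymphocytes. Lcn2 was found in 25.1% and 76.8% of mesothelial cells and in 45.5% and 91.6% of lymphocytes. The mesothelial values of Sprr2f, Lcn2 and Prap1 are therefore not read as expression, although the part of free RNA was not tested. Their DES to CO direction was the same in the epithelial cells. Before thinning, CO lymphocytes had a median of 4033 UMIs and CO mesothelial cells 10436. A smaller mesothelial share therefore does not show that expression was absent. Unthinned, 69.3% of DES and 99.9% of CO mesothelial cells had a Sprr2f UMI. Sprr2a3, which has near-identical copies, S100g, a calcium-binding protein, and Cxcl1, a chemokine that attracts neutrophils, had ratios of 0.0476, 0.0911 and 0.0682 and the same order of shares. Cxcl1 was at 6.27 CPM in DES and 91.9 CPM in CO mesothelial cells and was found in 47.8% of the CO myeloid cells at 3000 UMIs. The 12 epithelial markers summed to 303 CPM in DES and 460.4 CPM in CO mesothelial cells and to 7023 and 6515 CPM in epithelial cells, and none of the 12 was at 0. Their part in the low ratios was not tested.

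**Figure D3:**
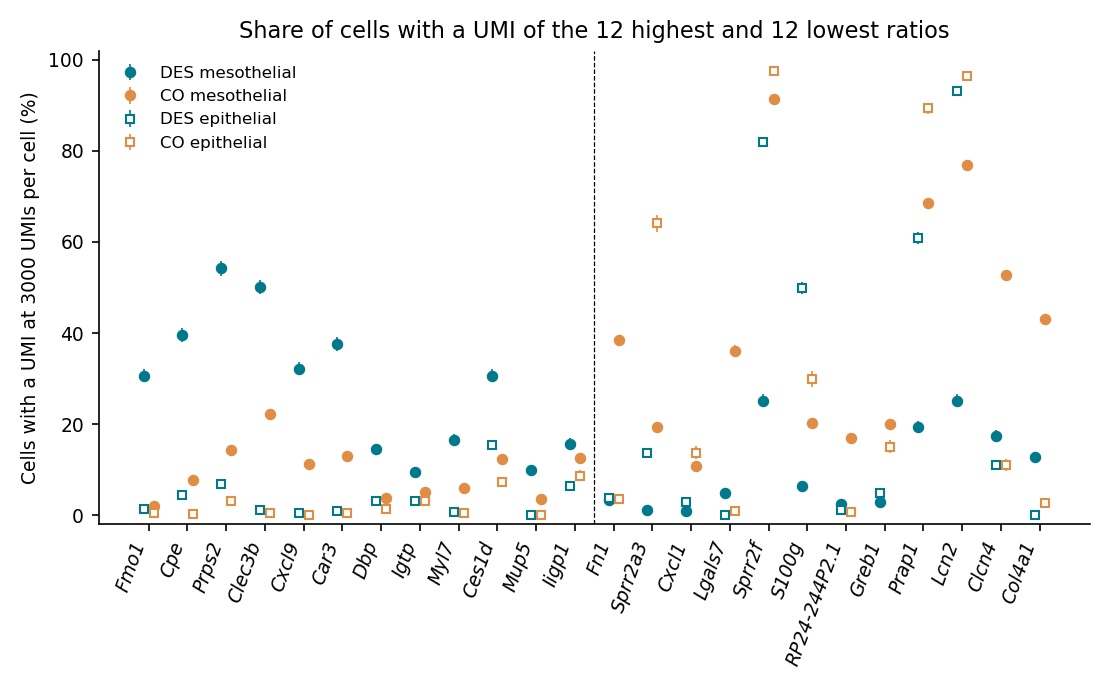
Share of cells with a UMI of each of the 12 genes with the highest ratios (left) and the 12 with the lowest (right) after thinning every cell to 3000 UMIs, in DES (teal) and CO (orange) mesothelial cells (circles) and epithelial cells (squares); bars are exact 95% binomial intervals. Fmo1, Cpe and Prps2 stand out in DES mesothelial cells, whereas Sprr2f, Prap1 and Lcn2 were found in most epithelial cells of both libraries.

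Most of the wider mesothelial genes were within 2-fold of CO. Of 24 further genes of mesothelium, 20 were tested, 2 were higher and 1 was lower, so 3 of 20 were called where 4.22% of all genes tested were. The median ratio was 0.924, beside 0.980 over all genes tested. Slpi, a secreted inhibitor of neutrophil proteases, was at 2866 CPM in DES and 1055 CPM in CO, a ratio of 2.72 (2.69 to 2.74), and Gata4, a transcription factor of coelomic mesothelium, at 15.5 CPM in DES and 6.82 CPM in CO, a ratio of 2.28 (2.05 to 2.53). Krt8, a keratin shared with epithelium, was at 235 CPM in DES and 539 CPM in CO, a ratio of 0.436 (0.428 to 0.444), and at 832 and 1549 CPM in the epithelial cells of DES and CO. Krt19, Ezr, which ties the membrane to actin, and Nkain4, a membrane protein, had ratios of 0.750, 0.953 and 1.57. Wt1, the Wilms tumor transcription factor that defines mesothelium, was named after its values were seen and was at 276 CPM in DES and 239 CPM in CO. Calb2 (calretinin), a classical human mesothelial marker, had 0 UMIs in the DES and the CO mesothelial cells, which by a floor of 3 UMIs per library allows at most 0.0464 and 0.0361 CPM.

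The markers of other cell types were summed in the same way. The 7 basal cell markers summed to 32.3 CPM in DES and 46.7 CPM in CO, with Dsg3 at 0 in CO. Of the 2 tested, Sfn was lower in DES, at 7.01 against 35.7 CPM, so the larger CO sum rests on this gene. Krt14, a basal keratin, was within 2-fold at 10.6 against 8.63 CPM. The basal keratins Krt5 and Krt15 were at 6.49 against 0.180 CPM and 6.18 against 1.88 CPM, below the 10 CPM minimum, and at 178 and 174 CPM in DES epithelial cells. Of the 12 epithelial markers 8 were tested, 6 were lower in DES (Cldn4, Cldn7, Epcam, Muc1, Elf3 and Cdh1) and 0 were higher, with a median ratio of 0.381. Of all genes tested 2.33% were lower. All 6 were found at 3000 UMIs in a smaller share of CO mesothelial cells than of CO lymphocytes, as for Epcam, an adhesion protein of epithelia, with 22.98% and 31.9%, so these levels are not read as expression. Epcam was at 28.3 against 80.2 CPM in DES and CO mesothelial cells, and Wfdc2, a secreted protease inhibitor, at 179 against 182 CPM. The ratio of Cdh1 (E-cadherin) was 0.499, and it no longer passed 2-fold when cells were averaged (0.529) or shared barcodes were left out (0.502).

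The 12 stromal markers summed to 1086 CPM in DES and 762 CPM in CO, the largest member being Fbln1 (fibulin-1) at 763 CPM in DES and 351 CPM in CO, a ratio of 2.17 (2.14 to 2.20). The same 12 summed to 4402 CPM in CO stromal cells and to 737 CPM in DES epithelial cells. The stromal genes Dpt and Pdgfra, named after their values were seen, were at 0.217 and 3.05 CPM in DES and 1.88 and 3.13 CPM in CO mesothelial cells, where CO stromal cells held 265 and 265 CPM, and Foxl2 was at 0 in DES. Of the 6 stromal markers tested, Pgr, the progesterone receptor, was lower at 3.14 against 12.2 CPM. Ly6a, a membrane protein of progenitor cells and lymphocytes, was lower at 12.8 against 31.1 CPM. Both were found in a smaller share of CO mesothelial cells than of CO lymphocytes. Because Ly6a is a protein of lymphocytes, its share in them is no background level. The 8 muscle markers summed to 274 CPM in DES and 309 CPM in CO, with 4 tested and all 4 within 2-fold. The 8 endothelial markers summed to 36.4 CPM in DES and 29.0 CPM in CO, of which Kdr, a receptor for vascular growth factor, was the one tested and lay within 2-fold, with Tie1 at 0 in DES. The pericyte, lymphocyte and adipocyte lists had 0 members tested, with sums of 7.18 CPM in DES and 17.2 CPM in CO, 2.29 CPM in DES and 10.4 CPM in CO, and 0.898 CPM in DES and 0.421 CPM in CO. Abcc9, Higd1b, Ms4a1, Plin1, Cfd and Cidec were at 0 in the DES cells.

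The 8 myeloid markers summed to 59.2 CPM in DES and 27.2 CPM in CO mesothelial cells, none of them at 0, and to 29176 and 13211 CPM in the myeloid cells of DES and CO. Of the 2 tested, Lyz2, lysozyme, was at 17.2 against 2.50 CPM, a ratio of 6.88, and was found at 3000 UMIs in 4.81% of DES mesothelial and 4.63% of DES epithelial cells. Csf1r, the receptor that maintains macrophages, was at 23.9 against 11.3 CPM, a ratio of 2.12, and was found in 6.90% of DES mesothelial and 0.327% of DES epithelial cells. The 4 hemoglobin genes, a sign of red cell RNA, summed to 1099 CPM in DES and 1724 CPM in CO and all had ratios below 1, with Hba-a2, a near-identical copy of Hba-a1, lower at 0.438. Its ratio was 0.543 when cells were averaged.

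Genes of the extracellular matrix lay on both sides of CO. Of 16 collagen genes, 14 were tested, 4 were lower in DES, where 2.33% of all genes tested were, and 0 were higher, with a median ratio of 0.828 and 2 of 14 above 1. Beside Col4a1, the lower genes were Col4a2, its partner chain, at 33.7 CPM in DES and 118 CPM in CO (ratio 0.287), Col12a1, a fibril-associated collagen, at 11.1 CPM in DES and 61.3 CPM in CO (ratio 0.182), and Col5a2, a fibril collagen, at 89.3 CPM in DES and 193 CPM in CO (ratio 0.463, but 0.525 with cells thinned to equal depth). The abundant fibril collagens were nearer to CO, with ratios of 0.864 for Col3a1, 0.841 for Col1a2 and 0.814 for Col1a1.

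Of 25 other matrix genes, 22 were tested, with a median ratio of 0.981. Of these, 4 were higher and 3 lower, where 1.89% of all genes tested were higher and 2.33% lower. The higher ones were Spon2, a secreted adhesion protein, at 36.4 against 10.9 CPM (ratio 3.34), Fbln5, which assembles elastic fibers, at 49.6 against 18.3 CPM (ratio 2.71), Prg4, lubricin, which lubricates joints and serous surfaces, at 31.2 against 11.6 CPM (ratio 2.70), and Efemp1, a fibulin, at 1124 against 548 CPM (ratio 2.05, and 1.97 with cells thinned). The lower ones beside Fn1 were Thbs1, thrombospondin-1, an adhesion protein, at 28.6 against 115 CPM (ratio 0.249) and Fbln2, another fibulin, at 21.2 against 48.0 CPM (ratio 0.441). Dcn (decorin), a proteoglycan that binds collagen fibrils, was the most abundant transcript of the members at 18958 CPM in DES and 17675 CPM in CO, above the 8859.5 CPM of CO stromal cells, and it was within 2-fold with a ratio of 1.07. The most abundant transcripts after it were Malat1, a nuclear noncoding RNA, mitochondrial genes, Crip1, a small zinc-binding protein, Tpt1, Fth1 (ferritin), S100a6 and Tmsb4x, which binds actin, all within 2-fold, with Tmsb4x furthest from CO at a ratio of 0.579. Lum, Sparc and Mgp, further abundant matrix genes, had ratios of 0.818, 0.629 and 1.47.

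Of 22 proteases and inhibitors 13 were tested. Mmp3 (stromelysin-1), which degrades matrix, was higher at 101.8 against 49.8 CPM (ratio 2.04), and the inhibitor Timp3 was lower at 329 against 697 CPM (ratio 0.472), as was the protease Adamts1 at 8.27 against 17.4 CPM (ratio 0.476). None of the 3 was past 2-fold under every way of counting, since Mmp3 was at 1.69 and Timp3 at 0.507 when cells were averaged and Adamts1 at 0.582 in cells chosen by markers, which are the mesothelial cells with UMIs of Upk3b, Lrrn4 and Gpm6a and none of Epcam, Krt14 or Ptprc. Of 20 genes of mesenchymal transition 15 were tested, 0 were higher and 3 were lower, where 2.33% of all genes tested were lower. The 3 were Cyr61, a matrix-associated growth regulator (ratio 0.348), S100a4, a calcium-binding protein of motile cells (ratio 0.413), and Snai2, a transcription factor of the transition (ratio 0.486, and 0.501 without the 2 small sub-clusters). Vim (vimentin) was at 1221 CPM in DES and 1288 CPM in CO. Of 20 adhesion and junction genes 18 were tested, with a median ratio of 1.00, and Cldn10, a tight junction channel, was the one past 2-fold, at 117 against 43.2 CPM (ratio 2.70). DES epithelial cells held Cldn10 at 827 CPM and CO epithelial cells at 229 CPM. Of 12 genes of hyaluronan and lubrication 5 were tested and Aqp5, a water channel, was lower at 6.08 against 27.2 CPM, with 163 and 303 CPM in epithelial cells.

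**Figure D4:**
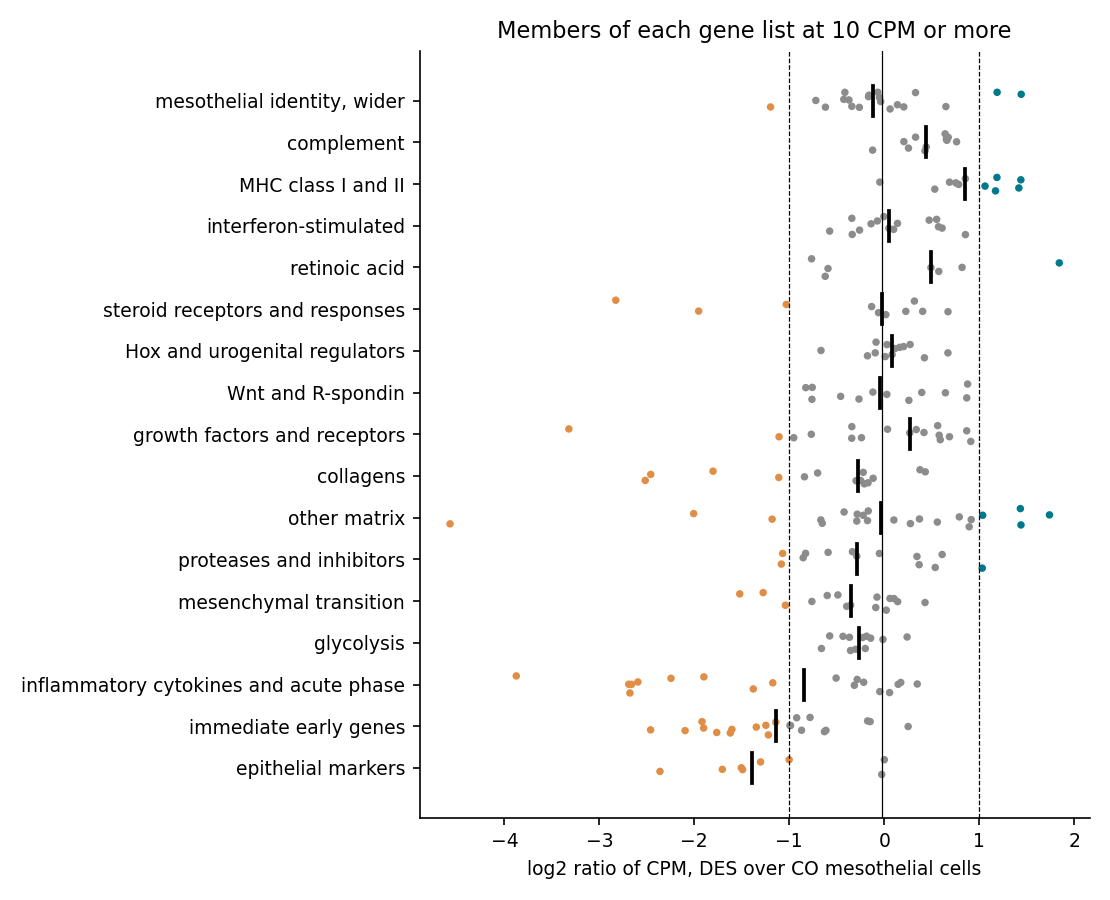
Log2 ratio of CPM, DES over CO mesothelial cells, of each tested member of 17 gene lists (dots), with the list median (thick bar) and 2-fold marked by dashed lines; teal members are higher and orange members lower. The epithelial, immediate early and inflammatory lists lie to the left, and the MHC, complement and retinoic acid medians lie to the right.

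Genes of host defense were called in the MHC and inflammatory lists and not in the complement list. Of 14 complement genes 11 were tested, 0 passed 2-fold, and 10 of 11 had a ratio above 1, with a median of 1.36. C3, the central component, was at 2941 CPM in DES and 2166 CPM in CO, and its regulator Serping1, which holds complement in check, at 2222 CPM in DES and 1408 CPM in CO. Clu (clusterin), a secreted chaperone that blocks the terminal complex, was at 964 CPM in DES and 613 CPM in CO, a ratio of 1.57.

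Of 13 genes of major histocompatibility complex (MHC) class I and II, 11 were tested, 5 were higher and 0 were lower, where 1.89% of all genes tested were higher, with a median ratio of 1.81 and 10 of 11 above 1. H2-D1, a class I chain, was at 1219.9 CPM in DES and 542 CPM in CO, a ratio of 2.25 (2.23 to 2.28), and its partner B2m at 917 CPM in DES and 439.8 CPM in CO, a ratio of 2.09, and 1.99 with cells thinned. The class II chains H2-Ab1 and H2-Aa and their chaperone Cd74 were at 73.2 against 27.0 CPM, 42.9 against 18.9 CPM and 115 against 43.0 CPM, ratios of 2.71, 2.27 and 2.67. Myeloid cells held Cd74 at 10969 and 4404 CPM in DES and CO, and the myeloid markers also had a higher sum in the DES mesothelial cells, as given with the myeloid list. Cd74 was at 532 and 28.8 CPM in the epithelial cells of DES and CO. In the cells chosen by markers the Cd74 ratio was 4.02 and the H2-Ab1 ratio 3.21. Class I chains such as H2-D1 have close paralogs, so their reads may have been split among them.

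Of 20 interferon-stimulated genes 15 were tested and 0 passed 2-fold either way, with a median ratio of 1.03. Ifitm3 and Ifitm1, membrane proteins that hinder virus entry, were at 1749 CPM in DES and 1634 CPM in CO and 387 CPM in DES and 214 CPM in CO, and Bst2, which tethers budding virus, at 572 CPM in DES and 413 CPM in CO. Of 27 inflammatory cytokines and acute phase genes 18 were tested, 9 were lower and 0 were higher, where 2.33% of all genes tested were lower, with a median ratio of 0.573. The 9 include Lcn2, whose mesothelial values were not read as expression above, so the count does not rest on mesothelial expression alone. They also include Cxcl1, which had the same order of shares but varied more with the way of counting. Over 9 other ways its ratio was 0.0185 to 0.0732, beside 0.162 to 0.177 for Lcn2 and 0.0399 to 0.284 for Ccl2. Whether the Cxcl1 values are mesothelial expression was not tested. Beside Cxcl1 and Lcn2, the lower genes were the chemokines Cxcl2, Ccl7 and Ccl2 at 2.15 against 13.9 CPM, 3.34 against 21.4 CPM and 7.35 against 27.4 CPM, the prostaglandin enzyme Ptgs2 at 4.85 against 30.6 CPM, the brakes on NF-kB signaling Tnfaip3 and Nfkbia at 5.26 against 24.96 CPM and 115 against 299 CPM, and the adhesion receptor Vcam1 at 9.69 against 21.9 CPM. Of the DES cells' Ccl2 UMIs 58.9% lay in sub-cluster 5 and 28.2% in sub-cluster 6, the small groups of cells described later, and of their Ccl7 UMIs 40.3% and 48.6%. Vcam1 was at a ratio of 0.443, and at 0.507 with cells thinned. Myeloid cells held Cxcl2 at 2050.5 and 2188 CPM in DES and CO.

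Immediate early genes, which switch on within minutes of stress or dissociation and are known to respond to tissue digestion, formed the list with the largest share of lower members among those of 10 or more tested genes. Of 22 genes 21 were tested, 11 were lower, where 2.33% of all genes tested were, 0 were higher and 20 of 21 had a ratio below 1, with a median of 0.453. Fos, a subunit of AP-1, was at 455 CPM in DES and 1079.7 CPM in CO, a ratio of 0.421 (0.416 to 0.427), and Egr1, a zinc finger transcription factor, at 84.9 CPM in DES and 467 CPM in CO, a ratio of 0.182 (0.177 to 0.187). Zfp36, Nr4a1, Ier3, Dnajb1, Ier2, Junb, Atf3, Fosb and Hspa1a had ratios between 0.234 and 0.453. In the DES cells 78.2% of the Fos UMIs and 76.9% of the Egr1 UMIs lay in 348 cells, sub-cluster 5, so the summed DES levels rest largely on few cells. The ratios were 0.0671 and 0.0286 with sub-clusters 5 and 6 left out of the DES cells only, lower by construction. The direction was the same in epithelial cells, where Egr1 was at 76.8 CPM in DES and 424 CPM in CO and Fos at 302 and 1133 CPM. These 2 libraries were digested separately, and the part of digestion in the difference was not tested.

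Among signals, the main estrogen receptor was level. Esr1, estrogen receptor alpha, was at 164 CPM in DES and 171 CPM in CO, a ratio of 0.958 (0.934 to 0.983). Of 15 genes of steroid receptors and responses 10 were tested and 3 were lower, Greb1, Pgr and Ltf, with 0 higher and a median ratio of 0.985. Of all genes tested 2.33% were lower. Pgr was found in a smaller share of CO mesothelial cells than of CO lymphocytes, as given with the stromal markers. Ltf, lactoferrin, an estrogen-induced secretion of the uterine lining, was at 79.1 CPM in DES and 162 CPM in CO and at 2216 and 2327 CPM in the epithelial cells, and its ratio of 0.489 became 0.574 with cells thinned. Tsc22d3, a glucocorticoid target, was at 337 CPM in DES and 212 CPM in CO, within 2-fold. Of 23 Hox and urogenital regulators 13 were tested, 0 passed 2-fold, and the median ratio was 1.06. Hoxc8, which sets position along the body axis, was at 183 CPM in DES and 136 CPM in CO.

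Of 15 genes of retinoic acid handling 7 were tested and 1 was higher, Dhrs3, which reduces retinal, at 33.4 CPM in DES and 9.33 CPM in CO, a ratio of 3.59 (3.30 to 3.90). Epithelial cells held Dhrs3 at 202 CPM in DES and 12.2 CPM in CO, and at 3000 UMIs it was found in 8.91% of DES mesothelial cells and 10.8% of DES lymphocytes. Rarres2 (chemerin), a chemoattractant induced by retinoids, was at 1612 CPM in DES and 1083 CPM in CO, and the retinal-oxidizing enzyme Aldh1a1 at 135 CPM in DES and 76.3 CPM in CO, both within 2-fold. The list's median ratio was 1.41.

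Of 24 genes of Wnt and R-spondin signaling 12 were tested and 0 passed 2-fold, with a median ratio of 0.970. Rspo1, which boosts Wnt signaling and is made by mesothelium, was at 715 CPM in DES and 597 CPM in CO, and Wnt5a, a ligand, at 248 CPM in DES and 189 CPM in CO. Of 22 genes of the bone morphogenetic protein, TGF-beta and activin pathways 16 were tested, with a median ratio of 0.994: Chrdl1, which binds and blocks bone morphogenetic proteins, was higher at 68.0 against 31.1 CPM (ratio 2.18), and Inhbb, a subunit of activin B, was lower at 2.85 against 28.0 CPM (ratio 0.102). CO stromal cells held Inhbb at 714 CPM. Of 27 growth factors and receptors 17 were tested, 0 were higher and 2 were lower, where 2.33% of all genes tested were lower, with a median ratio of 1.204. The 2 were Hbegf, a ligand of the epidermal growth factor receptor, at 1.58 against 15.8 CPM (ratio 0.100), and Fgf1, a fibroblast growth factor, at 122 against 262 CPM (ratio 0.464, and 0.503 in cells chosen by markers). Hbegf was at 24.3 and 226 CPM in the epithelial cells of DES and CO, and at 3000 UMIs in 5.33% of CO mesothelial cells and 12.6% of CO lymphocytes, whereas Fgf1 was in 50.3% and 3.23%. Igfbp6, a binding protein that sequesters insulin-like growth factor 2, was the most abundant of the list at 3254 CPM in DES and 2703 CPM in CO.

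Metabolic and growth genes were mostly within 2-fold. Of 23 antioxidant and detoxification genes tested among 25, and of 12 glycolysis genes tested among 14, 0 passed 2-fold, with medians of 0.941 and 0.833, and 11 of the 12 glycolysis genes had a ratio below 1. Gstm5 and Gstm1, which conjugate glutathione and have close copies, were at 1704 CPM in DES and 1402 CPM in CO and 885 CPM in DES and 600.3 CPM in CO, and Gapdh, a glycolytic enzyme, at 624 CPM in DES and 805 CPM in CO. Of 9 further carbonic anhydrases 5 were tested and 2 were lower, where 2.33% of all genes tested were lower. These were Car2 at 26.6 against 84.99 CPM and Car12 at 23.2 against 53.6 CPM, both of which epithelial cells held at higher levels. Car12 was at a ratio of 0.433 but 0.518 with cells thinned. Of 17 genes of lipid handling 9 were tested, with a median ratio of 0.976. Of 18 cell cycle genes 4 were tested and 0 passed 2-fold, and of 14 genes of p53 and senescence 10 were tested and Cdkn1a, a cell cycle inhibitor, was lower at 16.3 against 34.6 CPM (ratio 0.471, and 0.598 in cells chosen by markers).

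The members were not uniform. Clustering of the 3837 DES cells gave 7 sub-clusters, numbered by size, and the genes that lead them are a description, since the same cells and genes formed them. Upk3b was at 788 to 1237 CPM in all 7, so every sub-cluster held the mesothelial marker. Sub-cluster 1 (1155 cells, 30.1%) was led by Myl7, at 251 CPM against 54.6 CPM in the other members, Mmp3 (195 against 53.1 CPM) and Nxph1, a secreted neuronal ligand (237 against 71.8 CPM), and it also held Car3 (722 against 327 CPM) and Fmo1 (271 against 141 CPM). It held 70.5% of the members' Myl7 UMIs, 53.5% of their Car3 UMIs and 50.02% of their Fmo1 UMIs. These shares stand beside 22102203 of the members' 64595031 UMIs. Fmo1 was not limited to the largest group, at 74.8 CPM in sub-cluster 2, its lowest level, and 259.6 CPM in sub-cluster 6.

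Sub-cluster 2 (989 cells, 25.8%) was low in several markers, with Car3 at 82.7 CPM, Clec3b at 139 CPM and the 6 markers summing to 2545 CPM where sub-clusters 1, 3 and 4 had 4437, 4289 and 4174 CPM. In order, its 10 leading genes were Lsp1, Igf1, Csrp2, Rasgrp3, Ctla2a, Prrx1, Nrgn, Des, Lmcd1 and Tagln. Lsp1 is an actin-binding protein of leukocytes, Igf1 is insulin-like growth factor 1 and Csrp2 is a LIM protein of contractile cells. Des (desmin) and Tagln (transgelin) are proteins of smooth muscle. Ctla2a also names a cell type of the CO library. Igf1 was at 640.1 against 194 CPM, Csrp2 at 1035 against 319 CPM and Tagln at 635 against 243 CPM. The sub-cluster's 8 muscle markers summed to 345 CPM, against 199 to 290 CPM in the other sub-clusters. Des is among these 8, at 100.2 CPM here and 35.7 CPM in the other members. It was picked as a leading gene for that difference, so the sum is not separate evidence of muscle genes. The 12 stromal markers of the sub-cluster summed to 1282 CPM, against 967 to 1150 CPM in the others. Its median depth was 9014 UMIs against 15465 UMIs in sub-cluster 1. The part of these in its leading genes was not tested.

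Sub-cluster 3 (675 cells, 17.6%) was led by Col14a1, a fibril-associated collagen, at 213 against 91.3 CPM, and Mup5, at 95.1 against 41.5 CPM, and had the highest sums of collagens, 6426 CPM, and of complement, 10746 CPM. Sub-cluster 4 (432 cells, 11.3%) was led by Clec3b, at 1073 against 406 CPM, and the complement gene C4b, at 450.4 against 230.4 CPM. It had a median of 8396 UMIs and the highest median mitochondrial share, 8.64%.

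Sub-cluster 5 (348 cells, 9.07%) was led by immediate early genes, 9 of its 10 leading genes being on that list. Fos was at 3891 CPM there and at 109 CPM in the other members, a ratio of 35.7 (34.7 to 36.7), and Egr1 at 715 and 21.6 CPM, a ratio of 33.1 (31.1 to 35.3). Socs3, an inhibitor of cytokine signaling, was the remaining leading gene, at 268 against 19.6 CPM.

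Sub-cluster 6 (184 cells, 4.80%) was led by Igtp, Cxcl10 and Iigp1, genes known to be induced by interferon. Of its 10 leading genes 1, Ifit3, was on the interferon-stimulated list, and that list summed to 9347 CPM, where the other sub-clusters had 3630.2 to 4959 CPM. Igtp was at 946 CPM there and at 20.2 CPM in the other members, a ratio of 46.9 (43.8 to 50.1), Cxcl10, a chemokine of T cells, at 1495 and 34.7 CPM, and Iigp1 at 1787 and 50.8 CPM. Ifi47, Gbp4, Gbp5 and Irgm2, further interferon-induced GTPases, Cd274 (PD-L1), a ligand that restrains T cells, Ifit3 and the unnamed AC102225.2 completed the 10. These cells held 67.6% of the members' Cxcl10 UMIs, and their 13 MHC genes summed to 6810.0 CPM, where the other sub-clusters had 3203 to 3919.7 CPM. In DES and CO mesothelial cells as a whole Cxcl10 was at 102.3 against 106 CPM and Ifi47 at 51.8 against 52.2 CPM, so 2 of the leading genes differed little between the groups whereas Igtp and Iigp1 were past 2-fold. Igtp and Irgm2 overlap in the annotation and are near-identical paralogs, so their counts are uncertain against each other. Clustering at a higher resolution, or on 1000 in place of 2000 variable genes, again gave an immediate early group (315 and 364 cells) and a group led by the same kind of genes as sub-cluster 6 (191 and 167 cells). The CO cells were not clustered here, so whether they hold like groups was not tested.

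The sequence upstream of the leading genes of sub-cluster 6 is shown because many interferon-induced genes carry an interferon-stimulated response element there, whose core reads GAAA, any 2 bases and GAAA again. The 250 bases before each RefSeq gene start (GRCm38.p6) were searched on both strands, and matches on the opposite strand read TTTC, any 2 bases and TTTC. Of the 7 leading genes with a window, 5 held the core (Cxcl10, Gbp5, Ifit3, Igtp and Irgm2), where 3.21% of the 6673 tested genes with a window and 2.98% of 32851 windows held it. The windows of Igtp and Irgm2 are alike over most of their length, so these 2 matches are not independent. The sub-cluster was formed from these cells, so the match is a description of its leading genes and shows no binding. Among the genes with windows that were higher in DES as a whole 5 of 95 held the core (5.26%), and among the lower genes 6 of 134 (4.48%), both near the share of all tested genes. The windows below are given 5′ to 3′ on the strand of the gene with the core in capitals, Igtp from chr11:58199306-58199555 (plus strand), Cxcl10 from chr5:92348890-92349139 (minus strand), Ifit3, which held 2 cores, from chr19:34583279-34583528 (plus strand) and Gbp5 from chr3:142496684-142496933 (plus strand).
Igtp: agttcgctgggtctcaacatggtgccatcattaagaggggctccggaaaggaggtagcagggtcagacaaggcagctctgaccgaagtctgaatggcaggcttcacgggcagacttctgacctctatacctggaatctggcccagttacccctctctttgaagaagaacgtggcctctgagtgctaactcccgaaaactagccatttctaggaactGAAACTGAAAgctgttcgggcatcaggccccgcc
Cxcl10: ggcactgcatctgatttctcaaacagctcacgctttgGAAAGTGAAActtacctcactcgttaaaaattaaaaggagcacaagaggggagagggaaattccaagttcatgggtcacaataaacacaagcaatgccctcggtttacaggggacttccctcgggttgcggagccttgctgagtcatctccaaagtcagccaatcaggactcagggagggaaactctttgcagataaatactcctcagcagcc
Ifit3: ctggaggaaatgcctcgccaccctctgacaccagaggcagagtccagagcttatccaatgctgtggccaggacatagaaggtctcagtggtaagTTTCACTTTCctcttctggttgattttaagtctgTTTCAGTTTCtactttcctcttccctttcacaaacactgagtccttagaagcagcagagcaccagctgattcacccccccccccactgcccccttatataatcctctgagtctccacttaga
Gbp5: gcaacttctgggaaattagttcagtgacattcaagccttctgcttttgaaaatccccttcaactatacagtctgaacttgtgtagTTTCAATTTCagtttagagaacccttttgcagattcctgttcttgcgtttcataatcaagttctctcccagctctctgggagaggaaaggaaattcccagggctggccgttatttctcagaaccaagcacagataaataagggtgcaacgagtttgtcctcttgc
Igtp and Cxcl10 carried the core on the strand of the gene, and Ifit3 and Gbp5 carried it on the opposite strand.

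Sub-cluster 7 (54 cells, 1.41%) had a median of 4026.5 UMIs, the lowest of the 7, and a median mitochondrial share of 1.71%. Its leading genes included Cldn7, Elf3, Prap1, Tspan1 and Plet1, genes of epithelium, each from 12 to 49 UMIs, and Hbb-bt, a hemoglobin gene, at 298 against 75.9 CPM. Its 4 hemoglobin genes summed to 3549.6 CPM against 922 to 1305 CPM in the others, and its 12 epithelial markers summed to 781 CPM against 266 to 354 CPM in the others. Hbb-bt is among these 4 and Cldn7 and Elf3 are among these 12, so the sums partly repeat how the leading genes were picked. Sub-cluster 7 still held Upk3b at 1237 and Msln at 1445 CPM. It was given no name.

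**Figure D5:**
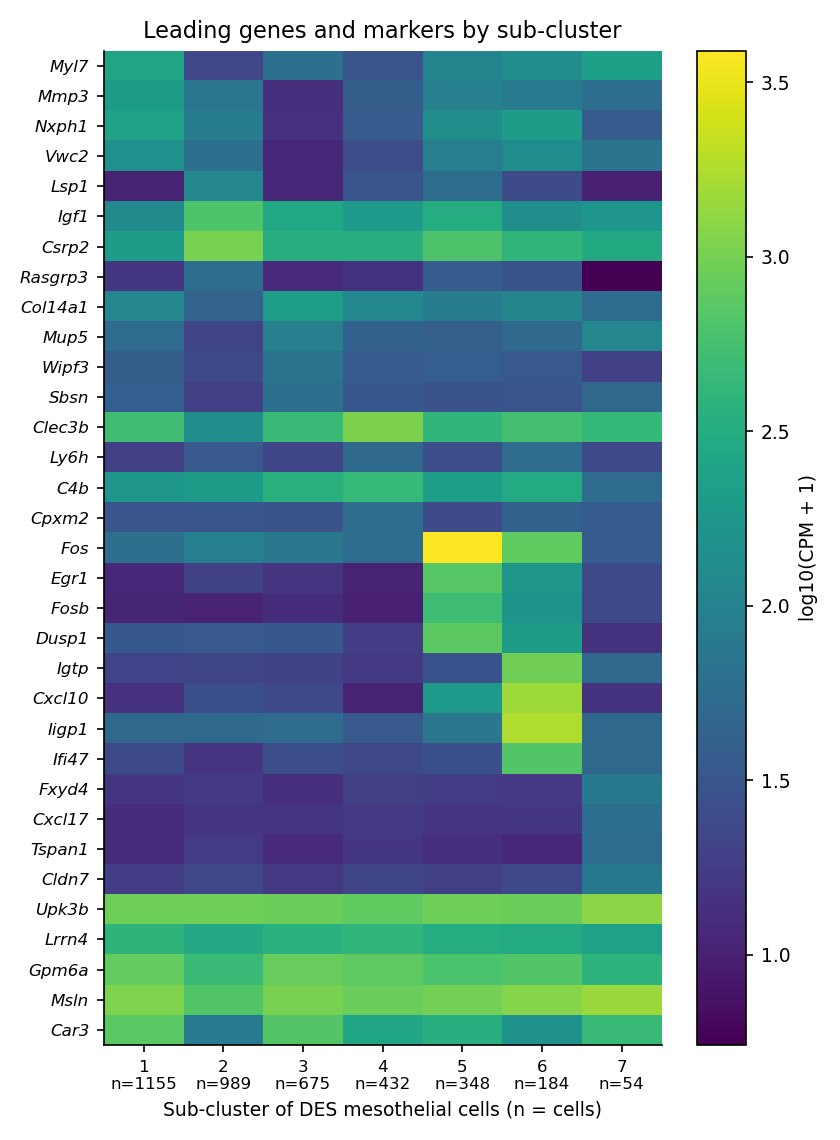
Level (log10 of CPM + 1) of 4 leading genes of each of the 7 sub-clusters of DES mesothelial cells and of 5 of the 6 markers, one column per sub-cluster with its number of cells; Clec3b stands among the leading genes of sub-cluster 4. Upk3b is even across the columns, Fos and Egr1 are bright in sub-cluster 5, Igtp and Iigp1 in sub-cluster 6, and Car3 is dark in sub-cluster 2.

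The sections are the only replicated DES and CO samples, with 2 mice a group, but they measured all tissue under the spots and not mesothelium alone. According to the study's methods, tissue was first examined for luminal and glandular epithelium, and in DES also for adenocarcinoma. The chosen blocks were then cored to such areas, so the sections are chosen regions of the uterus. How much mesothelium each section held was not measured. The sections held 1357 to 1834 spots and 9117099 to 12506177 UMIs each, and Upk3b was counted 33 and 23 times in the CO sections and 171 and 228 times in the DES sections. Of 14098 genes tested with edgeR's quasi-likelihood test, 376 (2.67%) were higher in DES and 371 (2.63%) lower. Section and spot levels are CPM of library sizes scaled by TMM, which sets each section's total by the bulk of its genes. In tissue of this kind fewer cells of a type and less RNA per cell cannot be told apart. Without DES A the counts were 14 and 0 genes, and without DES B 3 and 0, where 1721 and 1712 genes had an unadjusted p under 0.05. Without CO A the counts were 1312 and 1510 and without CO B 1148 and 1188, so they depended on the section left out, and the lone section was assumed to vary like the other group. DESeq2 with all 4 sections called 822 higher and 969 lower. The study reports a substantial tissue fold in CO B and limited identification of clusters in DES B. It based most of its spatial analyses on CO A and DES A, whereas all 4 sections were counted alike here. Of the 39 named genes described next 0 passed without DES A and 0 without DES B. With 1 DES section few genes passed at all, so the lost calls do not show that a difference lies in 1 section.

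Of the 255 genes named for the mesothelial cells and tested in the sections 39 passed (15.3%), 12 of them higher and 27 lower in DES, where 5.30% of all section genes passed. Among these 39, 13 were past 2-fold in the mesothelial cells, 9 in the same direction as in the sections and 4 (Cldn4, Junb, Spon2 and Thbs1) in the opposite one. Many named genes were chosen for their ratio, and 90 of the 196 followed over other ways of counting were past 2-fold. The 13 of 39 and 9 of 13 are therefore not read as agreement between cells and sections. Many named genes were also chosen for a high level, and they include markers of stroma and muscle. The 15.3% beside 5.30% is therefore not read as an enrichment of mesothelial genes. Fn1 was at 907 and 1063 CPM in the CO sections and 426 and 289.5 CPM in the DES sections (log2 fold change -1.46, SE 0.26, adjusted p = 0.0488), Col4a1 at 559.6 and 721 CPM in the CO sections and 111 and 80.2 CPM in the DES sections (log2 fold change -2.74, SE 0.26, adjusted p = 0.0212), and Col4a2 also passed (log2 fold change -2.42). With the replicate letter as a block, Fn1 did not pass. The 2 DES sections lay below both CO sections for all 3 matrix genes, which were also lower in the DES mesothelial cells. CO stromal cells held Fn1 at 588 and Col4a1 at 667 CPM, more than CO mesothelial cells did, and the cell type behind the section values was not measured. Greb1 was at 109.9 and 82.6 CPM in the CO sections and 52.2 and 40.1 CPM in the DES sections (log2 fold change -1.06, SE 0.24, adjusted p = 0.0748) and did not pass.

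Upk3b was at 2.88 and 2.20 CPM in the CO sections and 17.1 and 21.97 CPM in the DES sections (log2 fold change 2.93, SE 0.29, adjusted p = 0.0212) and Slpi at 16.3 and 19.3 CPM in the CO sections and 61.7 and 125 CPM in the DES sections (log2 fold change 2.39, SE 0.39, adjusted p = 0.0401). Both DES sections were above both CO sections for Upk3b, Slpi, Myl7 (2.27 and 0.479 CPM in the CO sections and 22.8 and 27.7 CPM in the DES sections, log2 fold change 4.17, SE 0.63, adjusted p = 0.0362) and Dhrs3 (131 and 188 CPM in the CO sections and 654 and 930.2 CPM in the DES sections, log2 fold change 2.32, SE 0.30, adjusted p = 0.0279). The other defining markers did not follow Upk3b: Lrrn4 was counted 8 and 2 times in the CO sections and 2 and 9 times in the DES sections, and Gpm6a 18 and 20 times and 21 and 21 times. Fmo1, Cpe, Car3, Clec3b, Cxcl9 and Igtp did not pass in the sections, with log2 fold changes of 0.24, -0.06, 1.47, -0.98, 0.06 and -0.32. Some genes differed in the opposite direction from the mesothelial cells: Junb (50.1 and 50.8 CPM in the CO sections and 115 and 107 CPM in the DES sections, log2 fold change 1.137, SE 0.16, adjusted p = 0.0306) and Thbs1 (21.2 and 25.7 CPM in the CO sections and 76.6 and 61.3 CPM in the DES sections, log2 fold change 1.56, SE 0.21, adjusted p = 0.0293) were higher in the DES sections, and Spon2 (360.4 and 349 CPM in the CO sections and 84.4 and 84.4 CPM in the DES sections, log2 fold change -2.07, SE 0.16, adjusted p = 0.0183) was lower. Junb did not pass with the replicate letter as a block. The muscle genes Acta2 and Des and the stromal marker Cd34 were lower in the DES sections (log2 fold changes -1.89, -2.03 and -2.94), and the part of tissue make-up in the section results was not tested.

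Spots with at least 3 UMIs of Upk3b, Lrrn4 and Gpm6a together were too few and too unlike to stand for mesothelium in both groups. The CO sections held 4 each and the DES sections 4 and 12, and Upk3b supplied at most 69.6% of the 3 genes' UMIs in the CO spots and 92.3% and 90.7% in the DES spots. Over these spots 76 of 466 genes tested with edgeR were higher in DES (16.3%) and 73 lower (15.7%). Without DES B the counts were 38 and 44, and without CO B 81 and 48. The basal keratin Krt5 was at 0 and 0 CPM in the CO spots and 5715 and 6651 CPM in the DES spots, and Epcam was counted 0 and 0 times in the CO spots and 7 and 80 times in the DES spots. Dcn and Igfbp6, abundant in the mesothelial cells, were at 4536 and 7347 CPM in the CO spots and 1104 and 458 CPM in the DES spots and at 2474 and 3860.3 CPM in the CO spots and 357 and 244 CPM in the DES spots. The DES spots thus held epithelial genes that were at 0 in the CO spots, and the values are not read as a difference within mesothelium. Fn1 was at 1837 and 1038 CPM in the CO spots and 584 and 244 CPM in the DES spots (log2 fold change -1.95, SE 0.54, adjusted p = 0.0234) and Col4a1 at 975 and 830.2 CPM in the CO spots and 162 and 51.7 CPM in the DES spots (log2 fold change -3.52, SE 0.53, adjusted p = 0.00178).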

How the data were processed

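Single-cell libraries of DES and CO uterine horns and Visium sections were analysed. The authors aligned reads to mm10 with Cell Ranger 3.0.1 (sections, Space Ranger 1.2.2) after bcl2fastq 2.20.0.422 and deposited raw UMI counts per gene, unnormalized. Cell types, quality calls and doublet removal with scran before deposit are the authors'. A further check with Scrublet marked 49 of 9701 typed DES cells (0.505%, 3 of them mesothelial) and 20 of 12253 CO cells (0.163%, 8 mesothelial), and they were kept.

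Counts of the mesothelial cells were summed per library. Genes at 10 CPM in either group were compared by a 2-fold rule of size, with no statistical test (1 library a group) and with exact 95% Poisson and binomial intervals that cover counting error only. The members, the 35 gene lists (545 genes) and the alternatives were chosen with earlier results of these data known. Named genes were the 6 markers, the 12 genes of highest DES level, the 12 highest and 12 lowest ratios at 50 CPM or more, every called member of a list, up to 4 members of each list with the highest DES level, the 10 leading genes of each sub-cluster, and those of all these that passed in the sections. Cells were thinned to 3000 UMIs for shares. Sub-clusters were made from the DES cells alone with scanpy 1.11.5 and igraph 0.11.9 (counts scaled to 10000 per cell, 2000 variable genes, 30 components, 20 neighbours, Leiden resolution 0.5) in Python 3.11.15.

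Sections, 2 per group, were summed over spots and tested with edgeR 4.0.16 (TMM, quasi-likelihood, Benjamini-Hochberg adjusted p at 0.05, two-sided) in R 4.3.3, whole and over spots with 3 UMIs of Upk3b, Lrrn4 and Gpm6a. On simulated counts the test on whole sections recovered 1% of 2-fold and 91.8% of 4-fold changes, and on marked spots 28.2% and 98.8%. The changed genes were 200 of 14100 and 195 of 14113 tested in whole sections and 163 of 446 and 173 of 479 in marked spots. The adjustment over all genes tested therefore weighs differently on them, and the recovered shares of sections and spots are not compared. Replicate letters did not pair the sections (correlation of deviations -0.03 for whole sections and 0.02 for spots). DESeq2 1.42.0 was an alternative. Promoter windows came from RefSeq (GRCm38.p6) and gene coordinates from GENCODE (GRCm38). A few genes that the rule names are not reported here.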

Additional observations from a re-analysis of the deposited data

How the results depend on the processing

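Of the 90 named genes past 2-fold in the mesothelial cells, 74 stayed past it under every alternative that gave a value (9 a gene, 8 for Epcam), 16 lost it under at least 1, and 0 reversed. The 167 higher and 205 lower genes became 52 and 77 with a minimum of 50 CPM and 1810 and 1604 with a minimum of 3 UMIs, where higher genes made up 53.02% of the calls. Without genes higher in epithelial cells, chosen after seeing the data with a filter that uses the mesothelial values themselves, they became 135 and 73. The share of DES cells with at least 4 of 6 markers became 87.7% at 5000 UMIs and 94.1% unthinned. At resolution 1 there were 13 sub-clusters. Alternatives without 2 sub-clusters or without shared barcodes were also chosen after seeing the data. In whole sections DESeq2 called 822 higher and 969 lower genes, and leaving out 1 section gave 3 to 1312 higher and 0 to 1510 lower genes. With the replicate letter as a block, whole sections gave 298 higher and 229 lower genes and marked spots 74 and 80. In marked spots higher genes were 167 with no filter beyond 1 count, 413 (and 367 lower) with 2 UMIs of the 3 genes, and 38 to 94 leaving out 1 section, with 44 to 91 lower, the lowest of each without DES B. A minimum of 5 UMIs was not run, since DES A held 0 such spots. The 39 named genes that passed in whole sections all passed with DESeq2, and 26 passed with the block. The 13 that did not were Fn1, Junb, Cldn4, Dcn, Col3a1, Lum, Ifitm1, Ifitm3, Rarres2, Cspg4, Car13, Cxcl17 and Notch3. The causes were not tested. With 1 library a group, the single-cell ratios have no replicate error.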

Other observations

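Among cells with no type in the annotation, 259 of the 2684 DES cells with 3000 UMIs or more (9.65%) and 1706 of the 14756 such CO cells (11.6%) had a UMI of at least 4 of the 6 mesothelial markers after thinning to that depth. All 6611 DES and 20134 CO cells with no type were marked in the deposited annotation as not passing the authors' quality filter. Over them the median was 510 genes per cell in DES and 753 in CO, the 95th percentile of the mitochondrial share was 74.8% and 58.1%, and the 4 hemoglobin genes summed to 171272 and 197080 CPM. These cells were not used for any ratio.

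Further genes of low level, chosen after their values were seen, had large ratios. Sugct, an enzyme of glutarate metabolism, was at 41.9 CPM in DES and 2.21 CPM in CO mesothelial cells, a ratio of 18.9 (16.3 to 22.1). Svep1, a matrix adhesion protein, was at 43.3 CPM in DES and 5.93 CPM in CO, a ratio of 7.31 (6.64 to 8.06). Tac1, the precursor of substance P, was at 21.97 CPM in DES and 3.18 CPM in CO, and Tnfrsf11b (osteoprotegerin), a decoy receptor of bone and immune signaling, at 19.1 CPM in DES and 4.06 CPM in CO, ratios of 6.91 and 4.72. Slc26a3, an intestinal chloride exchanger, was at 28.0 CPM in DES and 5.43 CPM in CO, a ratio of 5.16. These 5 genes lay below the 50 CPM used for naming. Irf1, a transcription factor induced by interferon, was lower in DES at 48.6 against 97.3 CPM, a ratio of 0.499 (0.479 to 0.520), while Igtp was higher.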
